A study of Ovis aries with 2 samples.

Results

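A gene name can stand on several lines of a transcript table. Here a name was counted as repeated when, in upper case, it stood on 2 or more lines of the deposited table and was not the placeholder for uncharacterised entries. This held for 1831 of the 15490 names in the table. Their lines, called entries below, number 4803 of 22881. A further 13659 entries carry a name of their own, and 4419 have no name. Entries of repeated names took 21.2% of the reads at all entries in the supplemented library and 20.8% in the restricted library.

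The RNA came from granulosa cells, the cells that line the ovarian follicle and make oestradiol and inhibin. They were scraped from follicles above 2.5 mm of Hu sheep ewes 3 to 4 years old, fed at different levels in the luteal phase. Supplemented ewes (8 assigned) were given 1560 g of feed a day, which is 1.5 times maintenance. Restricted ewes (8 assigned) were given 520 g, which is 0.5 times maintenance. Each diet has 1 library, made from 5 µg of RNA with 15 PCR cycles, and the sources used here do not say how many ewes gave RNA to it. Variation among ewes was thus not measured, and the diets could not be tested. Intervals given here are exact 95% counting intervals and cover counting error only.

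A repeated name can mean different things. Automatic annotation names a locus after its closest known relative, so family members at different sites may receive a common name. A gene can also be split into pieces by a gap in the assembly. Processed pseudogenes are copies of a messenger RNA written back into the genome, so they lack introns, and they are common for ribosomal protein genes and other genes of high expression. Genes of integrated retroviruses, such as POL, recur across the genome. Reads of near-identical copies may be placed at either copy, and the authors' rule for such reads was not among the sources used here. The values of such entries are uncertain to that extent.

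Over all entries, reads numbered 9426679 in the supplemented library and 11299773 in the restricted one. Reads outside the entries are not counted, so these totals are not sequencing depth. Markers of other cells differed between the libraries. The 7 measured of 8 leukocyte markers all had a higher FPKM in the supplemented library, with a summed level of 609 FPKM against 115 FPKM in the restricted library. The 6 stromal markers were also all higher, summing to 963 FPKM in the supplemented and 384 FPKM in the restricted library. The 2 theca markers were higher as well, summing to 209.1 FPKM supplemented and 100.8 FPKM restricted. The 3 oocyte markers went the other way, all lower, summing to 11.8 FPKM supplemented and 16.3 FPKM restricted. By deposited FPKM none of the 8 measured of 9 granulosa markers was higher. They summed to 9234 FPKM in the supplemented and 22315 FPKM in the restricted library. Most of both sums came from INHA, INHBA and SERPINE2. The sizes differed, with FSHR nearly equal at 65.5 FPKM supplemented and 74.3 FPKM restricted, and CYP19A1 at 60.7 FPKM supplemented and 203 FPKM restricted. No marker of these lists was at 0 reads. In bulk RNA of this kind, fewer cells of a type and less RNA per cell cannot be told apart.

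Most repeated names are short lists. Of the 1831 names, 1393 (76.1%) had 2 entries, 246 had 3 and 24 had 10 or more. POL, the retroviral polymerase, had the most with 72, followed by CFDP2 with 48, RPL17 with 24, and MYADM and PAG1 with 19 each. Of all 4803 entries, 1192 had no read in either library. There were 129 names without any read and 383 with reads at 1 entry only.

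The loci of the entries fell into 4 arrangements. Entries of 855 names (46.7%) lay on several chromosomes, and these names held 77.7% of the reads of repeated names in the supplemented library and 79.1% in the restricted library. Entries of 663 names lay beside each other, with a smallest gap of at most 100 kb. Their median gap was 7714 bases, with quartiles of 846 and 22413 bases. Entries of 264 names lay farther apart on 1 chromosome. A further 49 names had overlapping entries and were counted apart, also where other entries of the name lay elsewhere. All 64 overlapping pairs of entries had the same start and end, and no pair overlapped in part. In the table such entries share a locus that may span several transcripts, as 402 entries of repeated names share theirs with another entry of any name, so an equal locus does not show equal exons.

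The table gives a locus and no exons, but the length that the authors used for FPKM can be recovered from reads and FPKM. An entry whose modelled length lay within 2% of its locus is called a single block below, since that leaves no room for introns. Of 3485 entries with reads and a locus of at least 300 bases, 695 (19.9%) were single blocks. Among names with 1 entry the share was 508 of 12595 (4.03%). Single blocks made up 7.40% of the leading entries, meaning the entry of each name with the highest mean share of reads, and 31.8% of the others. Among the other entries of names on several chromosomes the share was 47.5%, against 14.1% among those of neighbouring names. Single blocks were mostly near silent, with a median of 7 reads in the supplemented library and 7 in the restricted library. A modelled length shorter than the locus can mean introns or a place inside a larger shared locus, which cannot be told apart here. After rounding, 87.0% of the modelled lengths of repeated names were multiples of 3 bases, so most of them are coding lengths.

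**Figure D1:**
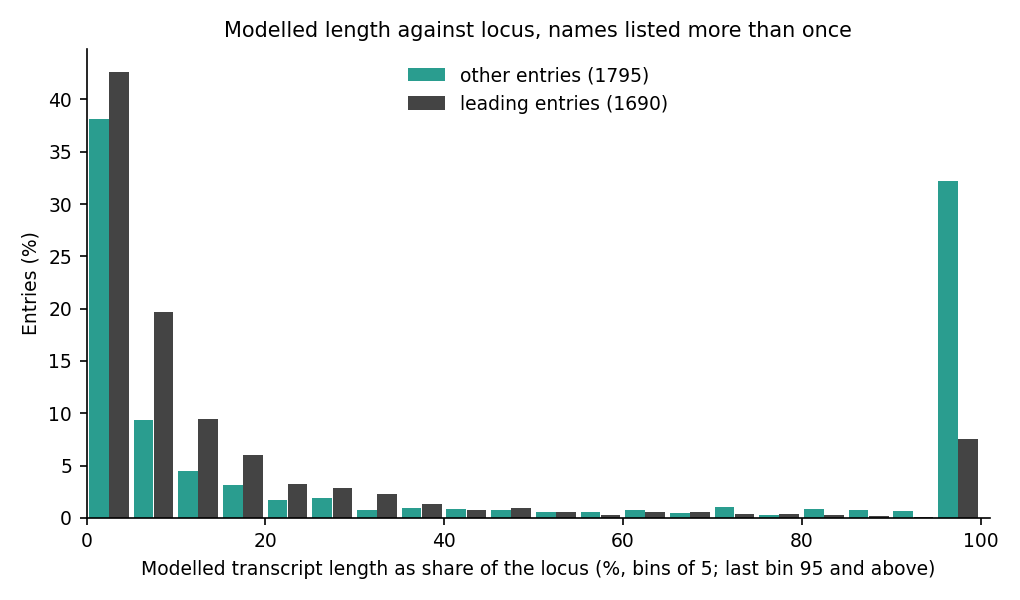
Modelled length of entries of repeated names as a share of their locus, in bins of 5%, for 1795 other entries (green) and 1690 leading entries (grey); the vertical axis is the percent of entries of each kind. Entries gather at the low end, where the modelled length is a small part of the locus, and at 95% and above, where the other entries have a much taller bar than the leading ones.

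Of the families listed here, ribosomal proteins had the most entries of repeated names. Of 82 names of cytosolic ribosomal proteins, 65 were repeated, with 349 entries, 63 of the names on several chromosomes. Of these entries 91 had no reads, and 110 of the 243 with a length call were single blocks. The single blocks took 4.58% of the family's reads in the supplemented library and 4.79% in the restricted library. The median leading share was 98.2% in the supplemented library and 98.6% in the restricted library, so in most of these names 1 entry stood for nearly all reads.

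RPL17, a protein of the large ribosomal subunit, shows the usual form. Its leading entry (chr23:49324649-49328190 of Oar_v3.1, the build of all positions here) had 7995 reads in the supplemented library and 7538 in the restricted one, which is 93.9% and 94.0% of the reads of the name. Of its 24 entries, 13 had no reads and 6 were single blocks. RPL3 and RPL4, also of the large subunit, held over 99% at their leading entry in both libraries. RPL7A held 98.3% in the supplemented library and 97.8% in the restricted library.

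RPS25 and RPL36A departed from that form. RPS25, a protein of the small subunit, had 2904 reads in the supplemented library and 3271 in the restricted one at its leading entry (chr15:29075802-29077514). A single block of 481 bases on another chromosome (chr5:47127247-47127727) had 2112 reads in the supplemented library and 2339 in the restricted one. That is 42.0% and 41.6% of the reads of the name. RPL36A was split between chromosome X, with 4400 supplemented and 4267 restricted reads, and chromosome 7, with 4044 supplemented and 4106 restricted reads. In both names the split was nearly equal in the 2 libraries.

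Ferritin was split in the same way. Ferritin stores iron in a shell of heavy and light chains. FTH1, the heavy chain, had 12 entries, 6 of them single blocks. Its leading entry (chr21:39885953-39886669) had 11012 reads in the supplemented library and 7263 in the restricted one. A single block on chromosome 3 (chr3:31523961-31524506) had 7502 reads in the supplemented library and 4796 in the restricted one, or 40.5% and 39.8% of the name. Both entries stood higher in the supplemented library, 1.57-fold (1.52 to 1.62) at the leading entry and 1.62-fold (1.56 to 1.68) at the single block. FTL, the light chain, had 83.7% of its reads at the leading entry and 14.7% at a single block in the supplemented library, against 84.0% and 15.3% in the restricted library.

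Other names with a well-read single block were HMGB1, TUBA1C, EIF4A2 and HSPD1. HMGB1, a DNA-bending chromatin protein, was led by its single block (chr1:237771346-237772222), with 1083 reads in the supplemented library and 1960 in the restricted one. Its second entry (chr10:30585883-30588285) had 876 supplemented and 1561 restricted reads, so the block held 55.0% in the supplemented library and 55.4% in the restricted library. TUBA1C, an alpha-tubulin, had a single block with 37.1% of its reads in the supplemented library and 36.5% in the restricted one. EIF4A2, an RNA helicase of translation initiation, had one with 43.9% in the supplemented library and 46.2% in the restricted one. HSPD1, the mitochondrial chaperonin, had one with 38.3% in the supplemented library and 42.6% in the restricted one.

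EEF1A1, which carries aminoacyl-tRNA to the ribosome, had 17 entries, 9 of them single blocks. Its leading entry (chr8:82783-84915) had 31045 reads in the supplemented library and 29876 in the restricted one. Its second entry, on chromosome 11 (chr11:20645324-20856633), had 7791 supplemented and 11404 restricted reads. The leading share was 77.5% in the supplemented library and 70.2% in the restricted library. The leading entry was 1.08-fold (1.06 to 1.09) and the second 0.71-fold (0.69 to 0.73) the restricted value. These counting intervals lie apart. A comparison of entries of 1 name does not depend on how the libraries were scaled, since the scaling is common to both.

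Across names, the leading share was high and nearly equal in the 2 libraries. At least 50 reads in each library were found for 1209 names. Their median leading share was 95.2% in the supplemented library and 95.3% in the restricted one. In 706 names it was at least 90% in both libraries, in 424 at least 99%, and in 102 below 60%. It was highest for names on several chromosomes, with a median of 99.3% in the supplemented library and 99.1% in the restricted one. It was lowest for neighbouring names, at 79.5% in the supplemented library and 79.6% in the restricted one. The median was 94.0% supplemented and 93.5% restricted for names distant on 1 chromosome, and 89.5% supplemented and 88.5% restricted for names with overlapping entries. The leading entry was chosen by these shares, so they are a description.

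**Figure D2:**
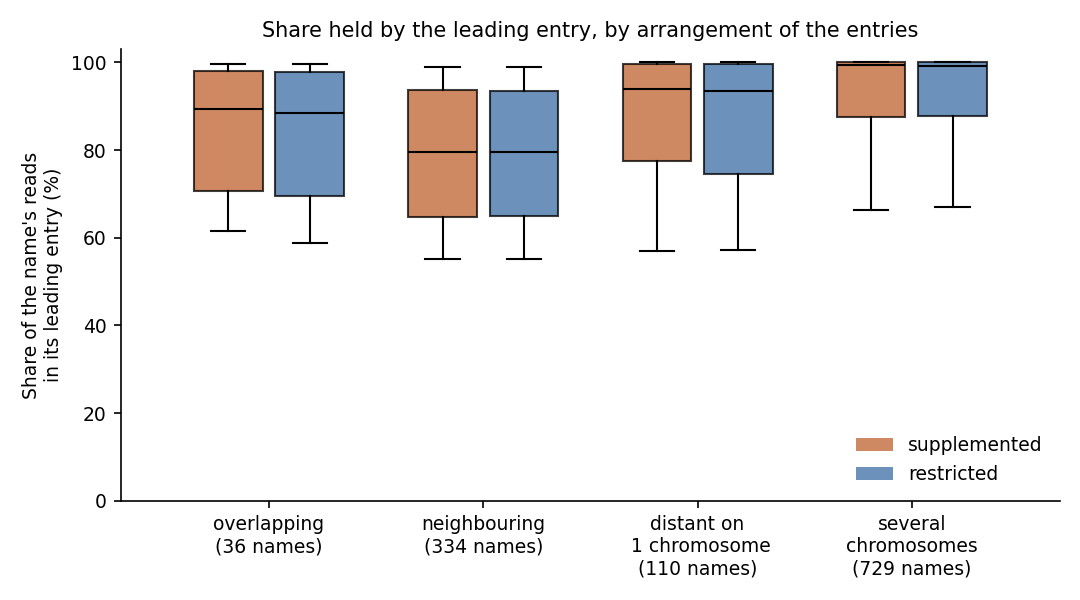
Percent of a name's reads held by its leading entry, for names with at least 50 reads in each library, by arrangement of the entries; supplemented boxes stand left of restricted boxes. Lines are medians, boxes quartiles and whiskers the 10th and 90th percentiles over names; the medians are lowest for neighbouring names (79.5% supplemented, 79.6% restricted).

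The share of the leading entry differed by a median of 0.72 percentage points between the libraries, with a 90th percentile of 5.55 points. A difference of at least 10 points with counting intervals apart was found for 20 of the 1209 names (1.65%), 9 with a higher and 11 with a lower leading share in the supplemented library. By arrangement these were 0 of 36 overlapping names, 9 of 334 neighbouring, 3 of 110 distant and 8 of 729 on several chromosomes. A looser count, intervals apart at any size, gave 78 names.

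**Figure D3:**
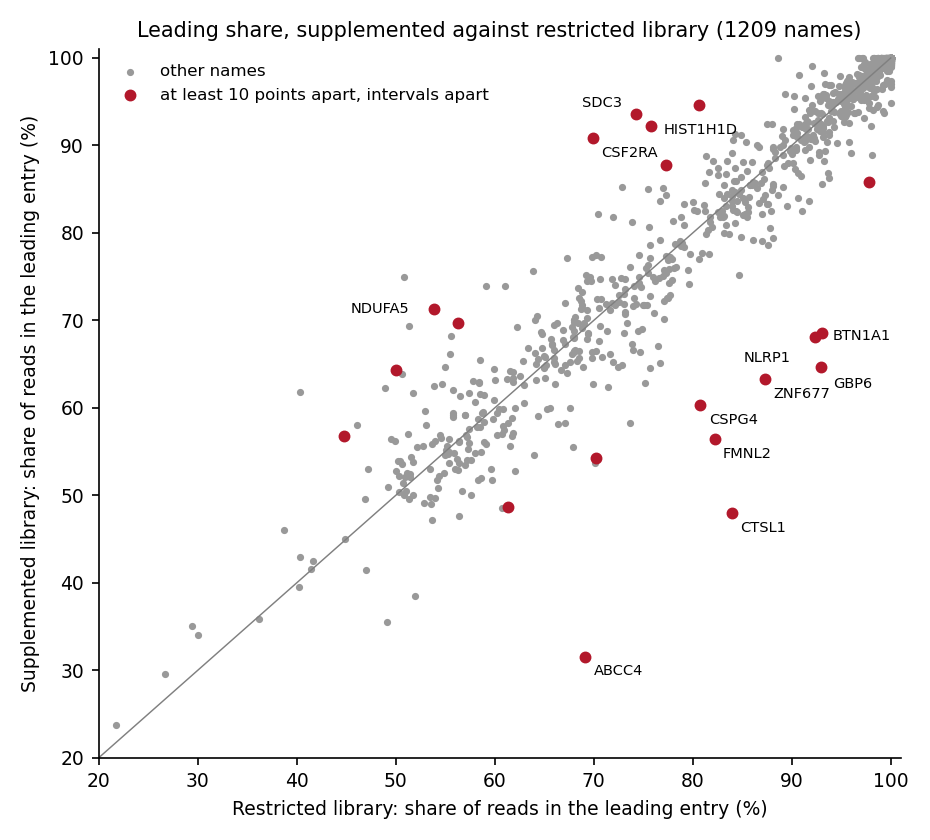
Leading share of 1209 names in the supplemented library (vertical axis, %) against the restricted library (horizontal axis, %); the line marks equal shares. The 20 red points differ by at least 10 points with counting intervals apart, and the 12 with the largest difference are named; most grey points lie close to the line.

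CTSL1 had the second largest share difference, 36.0 points, and many more reads than ABCC4, which had the largest. Cathepsin L is a protease of the lysosome. Its leading entry (chr2:29077991-29189702) had 721 reads in the supplemented library and 789 in the restricted one. Its second entry, farther along chromosome 2 (chr2:31785203-31790378), had 783 supplemented and 151 restricted reads. In FPKM the leading entry stood at 37.6 supplemented and 39.7 restricted, and the second at 34.8 supplemented and 6.48 restricted. The leading entry was 0.95-fold (0.85 to 1.05) and the second 5.37-fold (4.50 to 6.43) the restricted value. So the leading entry held 47.9% (45.4 to 50.5) of the reads in the supplemented library and 83.9% (81.4 to 86.2) in the restricted library, and the second entry alone differed in level. The sum of the entries was 1.66-fold (1.53 to 1.80).

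FMNL2 had a similar form, though its leading entry was also higher by its counting interval. It is named for a formin that assembles actin filaments. The leading entry on chromosome 2 (chr2:155780756-155914898) had 673 supplemented and 578 restricted reads, a 1.21-fold (1.08 to 1.35) value. The entry on chromosome 11 (chr11:44292247-44317341) had 520 supplemented and 125 restricted reads, or 4.31-fold (3.54 to 5.28). Their modelled lengths of 3201 and 3231 bases were close. The leading share was 56.4% in the supplemented library and 82.2% in the restricted one.

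NLRP1, GBP6 and CSF2RA, names of immune genes, also had entries that differed. NLRP1 is a sensor that starts inflammasome assembly. Its leading entry on chromosome 1 had 177 supplemented and 132 restricted reads, 1.39-fold (1.10 to 1.75), and its entry on chromosome 11 had 83 supplemented and 11 restricted reads, 7.81-fold (4.15 to 16.3). GBP6 is an interferon-induced GTPase. Its leading entry on chromosome 1 had 106 supplemented and 224 restricted reads, 0.49-fold (0.39 to 0.62), while the second had 56 supplemented and 16 restricted reads, 3.62-fold (2.05 to 6.77). CSF2RA is the alpha subunit of the receptor for granulocyte-macrophage colony-stimulating factor. Its leading entry on chromosome X had 269 supplemented and 72 restricted reads, 3.87-fold (2.97 to 5.09), and its entry on chromosome 12 had 27 supplemented and 31 restricted reads, 0.90-fold (0.52 to 1.56). The 7 leukocyte markers summed to 609 FPKM supplemented and 115 FPKM restricted. An entry of each of these names and of CTSL1 and FMNL2 was higher in the same library. Those entries were picked for being higher, so the shared direction follows from the choice, and the leading entry of GBP6 was lower. The part of leukocyte RNA in these results was not tested.

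BTN1A1 differed in opposite directions at its leading and second entries, and DMBT1 differed at its leading entry. BTN1A1, a butyrophilin of the milk fat globule, had 124 supplemented and 282 restricted reads at its leading entry and 49 supplemented and 18 restricted reads at its second. DMBT1 is a scavenger receptor-like protein of mucosal surfaces. Its leading entry had 927 supplemented and 208 restricted reads, 4.61-fold (3.97 to 5.39), and its second had 53 supplemented and 50 restricted reads, 1.10-fold (0.73 to 1.65).

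Transporter, matrix and metabolic names were also among the 20. ABCC4, an efflux pump for organic anions and cyclic nucleotides, had 12 entries and few reads. Its leading entry had 54 supplemented and 56 restricted reads, the second 28 supplemented and 6 restricted, and the third 18 supplemented and 3 restricted. Its leading share was 31.6% (24.7 to 39.1) supplemented and 69.1% (57.9 to 78.9) restricted. CSPG4, a cell surface proteoglycan, had 287 supplemented and 723 restricted reads on chromosome 18, 0.41-fold (0.36 to 0.47), and 189 supplemented and 172 restricted reads on chromosome 16, 1.14-fold (0.92 to 1.41). NDUFA5, a subunit of respiratory complex I, had 112 supplemented and 174 restricted reads on chromosome 4, 0.67-fold (0.52 to 0.85), and 45 supplemented and 149 restricted reads on chromosome 2, 0.31-fold (0.22 to 0.44). SDC3, a syndecan proteoglycan, had leading shares of 93.6% supplemented and 74.2% restricted, HIST1H1D, a linker histone, 92.2% supplemented and 75.8% restricted, and ZNF677, a zinc finger protein, 63.3% supplemented and 87.3% restricted.

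The 20 names also included PRDM2, PNKD, MTMR9, PPP1R2 and ECE2, at moderate depth. PRDM2, named for a methyltransferase-like zinc finger protein, was led by a single block with 534 supplemented and 562 restricted reads, 0.98-fold (0.87 to 1.11). Its adjoining entry had 449 supplemented and 238 restricted reads, 1.95-fold (1.67 to 2.30). PNKD had 478 supplemented and 344 restricted reads at its leading entry, and 364 supplemented and 424 restricted reads at its neighbour. MTMR9, a phosphatase-like protein of the myotubularin family, was 2.05-fold (1.58 to 2.66) at its leading entry and 1.14-fold (0.85 to 1.53) at the other. PPP1R2, an inhibitor of protein phosphatase 1, was 0.87-fold (0.73 to 1.03) on chromosome 1 and 1.45-fold (1.20 to 1.77) on chromosome 11. ECE2, an endothelin-converting enzyme, was 0.92-fold (0.74 to 1.14) at its leading entry and 0.52-fold (0.39 to 0.69) at its neighbour.

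HSPA1B differed in the other direction at both entries, though not by the same size. It is a stress-induced chaperone of the 70 kDa class, and both of its entries were single blocks, 3246 and 1926 bases long on chromosome 20. The longer (chr20:26660102-26663347) had 688 supplemented and 1846 restricted reads, 0.39-fold (0.35 to 0.42). The shorter (chr20:26649266-26651191) had 96 supplemented and 542 restricted reads, 0.18-fold (0.15 to 0.23). The leading share was 87.8% supplemented and 77.3% restricted. Among 10 repeated names of heat shock proteins and their DNAJ partners, 17 entries passed the filter on FPKM described below. Of these 1 was higher and 3 were lower in the supplemented library, against 5.84% higher and 2.9% lower among all entries tested, so the count of higher ones is at the background.

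To compare entries directly, the leading and second entry were paired for 422 names in which both had at least 50 reads in each library. Across these pairs the log2 read folds of the entries had a Pearson r of 0.743 and a Spearman rho of 0.722. This is a description over names of 2 libraries, and all points share those libraries and their scaling. The median difference between the entries was 0.17 on the log2 scale. Counting intervals lay apart in 56 pairs (13.3%). Pairs were then sorted by the position of the paired entries themselves. Intervals lay apart in 2 of 14 overlapping pairs and in 7.98% of 188 neighbouring pairs. They lay apart in 6 of 43 pairs distant on 1 chromosome and 18.6% of 177 on different chromosomes. In the same order the median differences were 0.156, 0.173, 0.214 and 0.155, so pairs on different chromosomes did not differ more by this measure. The share apart also rose with the read minimum, from 11.7% at 20 reads per entry to 19.7% at 200. The r was 0.854 (rho 0.763) for the 126 neighbouring pairs with a gap of at most 10 kb. For the 62 with a wider gap r was 0.589 (rho 0.680). The rho values lay closer than the r values, and the median differences were 0.172 and 0.188 on the log2 scale. On different chromosomes r was 0.813 (rho 0.800) when the second entry was a single block (59 pairs). It was 0.516 (rho 0.568) when the second entry was not (118 pairs), while the median differences were 0.156 and 0.155. Entries differed by 2-fold or more in 6 pairs, those of CTSL1, FMNL2, DMBT1, HSPA1B, CSPG4 and NUP210L. NUP210L, named for a nuclear pore glycoprotein, had 1514 supplemented and 3716 restricted reads on chromosome 1 but 249 supplemented and 83 restricted reads on chromosome 19.

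**Figure D4:**
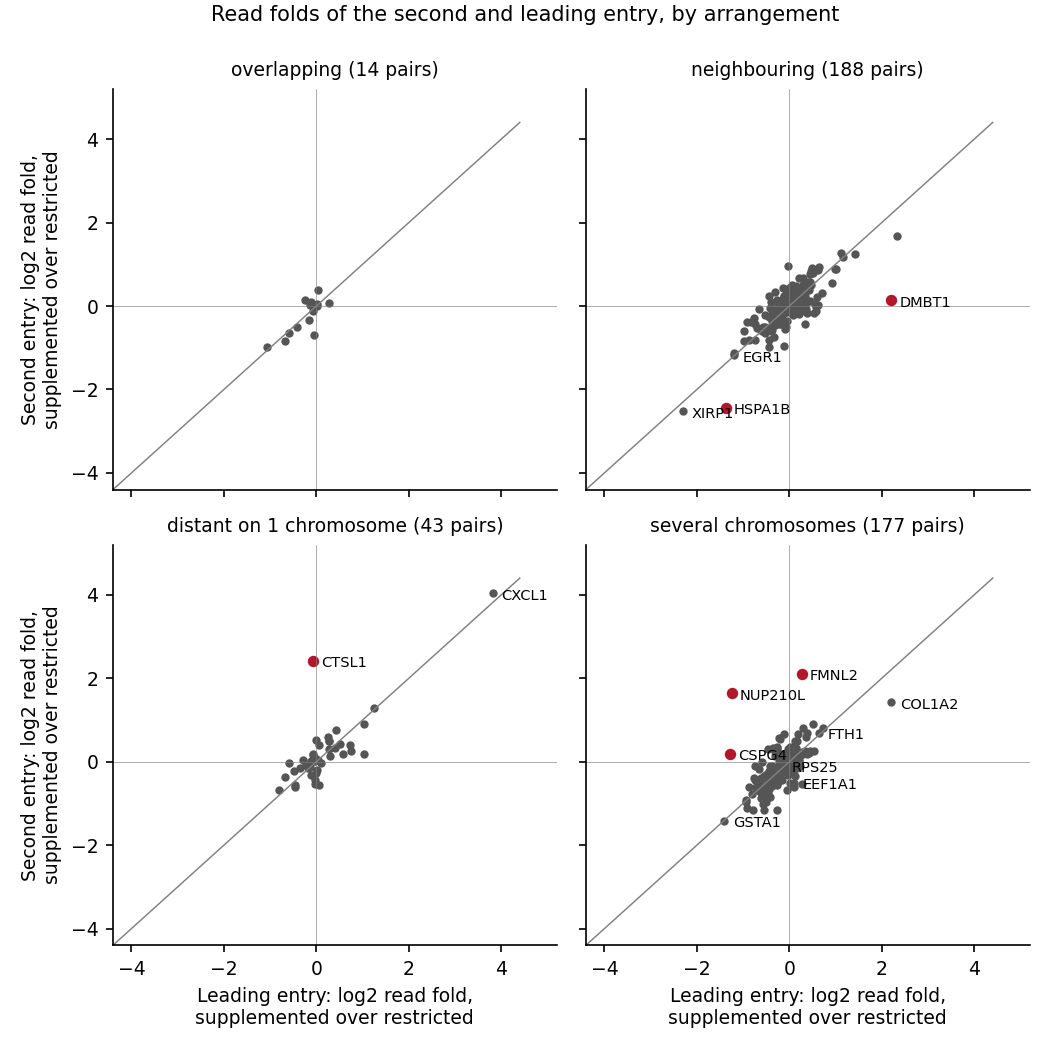
Log2 read fold, supplemented over restricted, of the second entry (vertical axis) against the leading entry (horizontal axis) for 422 names, in a panel for each arrangement of the paired entries; the diagonal marks equal folds. Red points are the 6 pairs that differ by 2-fold or more (CTSL1, FMNL2, DMBT1, HSPA1B, CSPG4 and NUP210L); CXCL1 and XIRP1 lie at the high and low end of the diagonal.

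Several names differed strongly between the libraries with their entries in step. CXCL1, a neutrophil-attracting chemokine, had entries on chromosome 6 some distance apart. The first (chr6:88733099-88745961) had 1147 supplemented and 84 restricted reads, 14.1-fold (11.3 to 17.9), and the second (chr6:88610487-88623861) had 1185 supplemented and 75 restricted reads, 16.4-fold (12.9 to 20.9). Each held about the same share in both libraries, 49.2% supplemented and 52.8% restricted at the first. SERPINB2, a plasminogen activator inhibitor, had 171 supplemented and 9 restricted reads at its first entry and 88 supplemented and 5 restricted reads at its second. CD36, a scavenger and fatty acid receptor, was 3.49-fold (3.19 to 3.82) at its leading entry, with 2161 supplemented and 641 restricted reads. Its neighbour was 4.36-fold (2.41 to 8.46), with 59 supplemented and 14 restricted reads. ICAM1, an adhesion molecule, was 3.90-fold (3.42 to 4.46) and 3.52-fold (1.70 to 7.99). The leukocyte marker sum, 609 FPKM supplemented and 115 FPKM restricted, moved with these names, and its part was not tested.

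EGR1, an immediate early transcription factor, had closely adjoining entries. The first (chr5:47225442-47227130) ends just before the second (chr5:47227213-47227722), which is a single block. The first had 3393 supplemented and 8041 restricted reads and the second 2641 supplemented and 6213 restricted reads. Both were 0.44-fold the restricted value, and the first held 56.2% supplemented and 56.4% restricted. XIRP1, an actin-binding protein of striated muscle, had neighbouring single blocks with 129 supplemented and 660 restricted reads, and 64 supplemented and 382 restricted reads. They stood at 0.20-fold (0.17 to 0.24) and 0.17-fold (0.13 to 0.23).

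**Figure D5:**
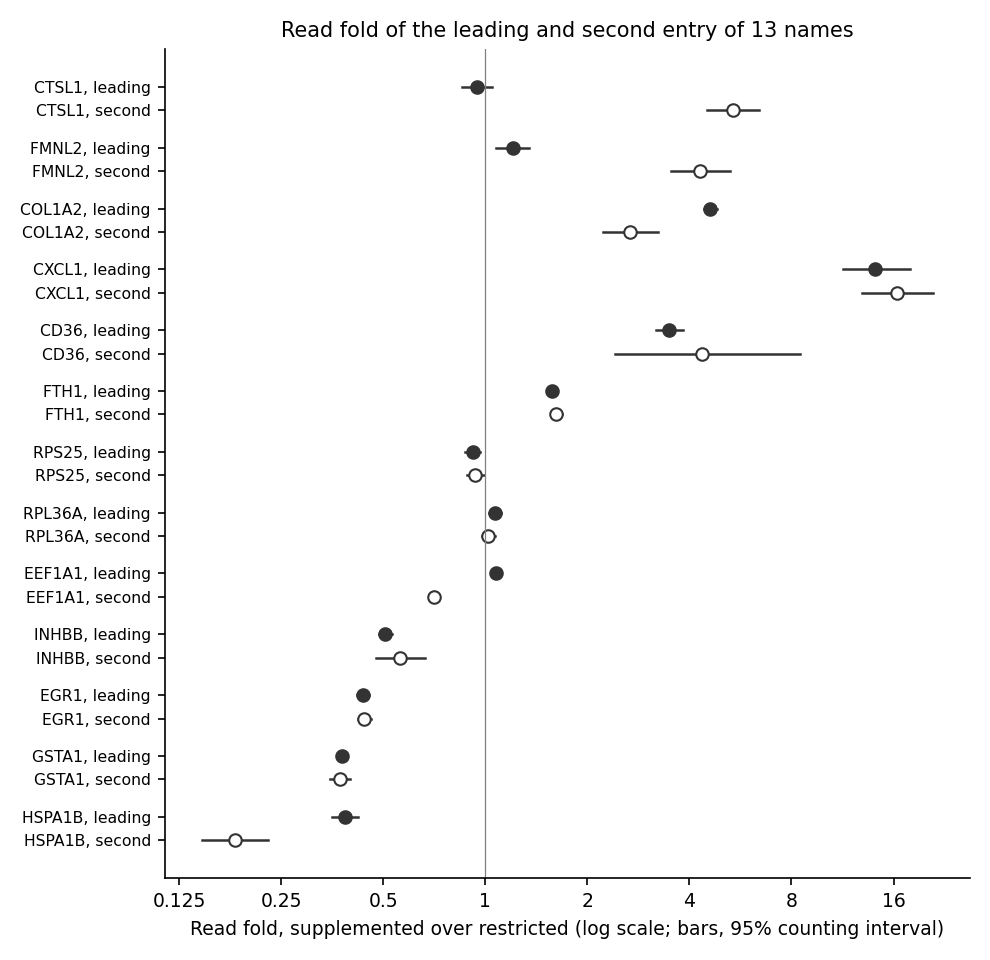
Read fold, supplemented over restricted, of the leading entry (filled) and second entry (open) of 13 repeated names on a log scale, with 95% counting intervals as bars. Entries of CXCL1, FTH1, EGR1 and GSTA1 lie together, while those of CTSL1 (0.95 and 5.37), FMNL2 (1.21 and 4.31) and HSPA1B (0.39 and 0.18) lie apart.

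The 14 overlapping pairs all share a locus, and counting intervals overlapped in 12 of them. MKI67, a protein of dividing cells, had entries at chr22:46439186-46468148 with 1552 supplemented and 2155 restricted reads, and 914 supplemented and 1330 restricted reads. They stood at 0.75-fold (0.70 to 0.80) and 0.71-fold (0.65 to 0.78). ROR2, a receptor tyrosine kinase of Wnt signalling, had 3 entries at chr2:26609569-26675209, at 0.48-fold (0.45 to 0.51), 0.51-fold (0.45 to 0.57) and 0.49-fold (0.43 to 0.55). The intervals of the entries overlapped in both names. In EP300 and POLR3E they lay apart. EP300, a histone acetyltransferase, had 1698 supplemented and 1725 restricted reads at its leading entry, a fold between 0.95 and 1.09, and 316 supplemented and 250 restricted reads at its second, 1.31-fold (1.11 to 1.55). POLR3E, a subunit of RNA polymerase III, was 0.96-fold (0.87 to 1.07) at its leading entry and 0.62-fold (0.47 to 0.81) at its second. How reads were divided among transcripts of a shared locus is the authors' estimate.

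Neighbouring entries of long genes were in step in some names and not in others. PSMD1, a proteasome subunit, had adjoining entries on chromosome 2 with 951 supplemented and 1489 restricted reads, and 921 supplemented and 1448 restricted reads, at 0.66-fold each. FLNA, an actin cross-linker, was 0.82-fold (0.79 to 0.84) at its leading entry and 0.75-fold (0.72 to 0.78) at the adjoining one. SYNE2, which links the nucleus to the cytoskeleton, was 1.63-fold (1.55 to 1.72) at its leading entry, with 3737 supplemented and 2368 restricted reads. Its adjoining entry was 1.24-fold (1.17 to 1.32), with 2530 supplemented and 2104 restricted reads. LTBP1, which binds latent TGF-beta, was 0.64-fold (0.62 to 0.66) at its leading entry and 0.95-fold (0.82 to 1.11) at the other. In FLNA, SYNE2 and LTBP1 the counting intervals of the entries lie apart, although the shares differed by less than 10 points.

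Names of follicle biology were repeated too. INHBB, the inhibin beta B subunit, had neighbouring entries. The leading one (chr2:184549622-184595212) had 3028 supplemented and 6172 restricted reads, 0.51-fold (0.49 to 0.53), and the other (chr2:184595284-184640194) had 223 supplemented and 411 restricted reads, 0.56-fold (0.48 to 0.66). GSTA1, a glutathione transferase that is abundant in steroid-making cells, had 23813 supplemented and 65194 restricted reads on chromosome 7 and 1236 supplemented and 3433 restricted reads on chromosome 20. These were 0.38-fold (0.37 to 0.38) and 0.37-fold (0.35 to 0.40). The granulosa marker sum (9234 FPKM supplemented and 22315 FPKM restricted, mostly INHA, INHBA and SERPINE2) moved with INHBB and GSTA1. Its part was not tested. NR5A2, a nuclear receptor of granulosa cells, was split 67.2% to 32.8% in the supplemented library and 65.8% to 34.2% in the restricted library between neighbouring entries, with folds of 0.75 (0.69 to 0.80) and 0.70 (0.63 to 0.78). IGF1R, the receptor of insulin-like growth factor 1, held 89.6% supplemented and 90.4% restricted at its leading entry. Of 92 names of steroid and gonadotrophin genes 14 were repeated, 12 of them as neighbours, and none of 8 entries above the filter passed 2-fold. With 5.84% higher and 2.9% lower among all entries tested, fewer than 1 of 8 would be past it at the background.

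The collagen names COL1A2 and COL6A2 were higher at both of their entries. COL1A2, a chain of type I collagen, had 9785 supplemented and 2195 restricted reads on chromosome 4, 4.62-fold (4.41 to 4.84). An entry with the same name on chromosome 2 had 419 supplemented and 162 restricted reads, 2.68-fold (2.23 to 3.23). COL6A2, a chain of type VI collagen, had neighbouring entries with 1545 supplemented and 736 restricted reads, 2.17-fold (1.99 to 2.38), and 257 supplemented and 111 restricted reads, 2.40-fold (1.91 to 3.02). TIMP1, an inhibitor of matrix metalloproteinases, went the other way with 21883 supplemented and 78436 restricted reads at its leading entry, 0.29-fold (0.28 to 0.29). Of the 12 repeated names of matrix, protease and protease inhibitor genes, 8 entries passed the filter described below. Of these 6 were past 2-fold higher and 1 lower, against 5.84% higher and 2.9% lower among all entries tested. Both entries of COL1A2 and both of COL6A2 are among the 6, so the higher entries come from fewer names and are not independent. Each of the 6 stromal markers had a higher level in the supplemented library, DCN by little (172 FPKM supplemented and 144 FPKM restricted). They summed to 963 FPKM supplemented and 384 FPKM restricted, COL1A2 among them. The part of the stromal markers in the collagen values was not tested.

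A fold rule was then applied to entries. It took the ratio of FPKM with 1 added to each value, asked for a log2 ratio of at least 1 or at most -1, and left out entries with a mean FPKM below 1. Of the 4803 entries, 2223 passed that filter. Of these 113 (5.08%) were higher and 62 (2.79%) lower in the supplemented library, against 5.84% and 2.9% of all 12799 entries tested, so the counts lie near the background. Among names with 1 entry the shares were 4.56% and 2.17%. The median log2 ratio was -0.08 for repeated names and -0.08 for all entries. When values were instead scaled to the total over all entries of each library, that median moved to 0.11 for all entries. By that scaling 80.4% of the entries past the rule were higher, against 64.6% as deposited. Among names distant on 1 chromosome 30 of 224 entries were higher and 8 lower, and among neighbouring names 45 of 681 were higher and 17 lower. On several chromosomes 36 of 1249 were higher and 34 lower. Of the names, 707 had at least 2 entries above the filter.

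Entries of a name past the rule in opposite directions were found for ASIP and CFDP2 only. ASIP is the agouti signalling protein of pigmentation and is also expressed outside the skin. Its entries on chromosome 13 have loci of 5197 and 5198 bases and the same modelled length of 402 bases. The leading one had 201 supplemented and 458 restricted reads, 0.45-fold (0.38 to 0.54). The other had 11 supplemented and 0 restricted reads, and the counting interval of its fold begins at 2.60. In CFDP2, named for a craniofacial development protein, the 7 entries past the rule as higher had at most 16 supplemented reads, and the lower one had 0 supplemented reads and 1 restricted read. Its 2 well-read entries on chromosome 14 had 1752 supplemented and 1729 restricted reads, and 710 supplemented and 856 restricted reads. Over all 48 entries the reads were nearly equal, 2755 supplemented and 2766 restricted, while the summed FPKM was 235 supplemented and 144 restricted.

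Summing the FPKM of a name and reading its entries gave different calls. A total of 133 names had an entry past the rule, and in 91 of them the sum was past it as well, while in 42 it was not. CTSL1 and FMNL2 were among the 42. In 29 names at least 2 entries passed in 1 direction. Conversely, 20 names passed by their sum and not by their leading entry, 12 higher and 8 lower. In 10 of these 20 the entry with the largest difference in FPKM, the leading one set aside, had fewer than 20 reads over both libraries. ANK2, an ankyrin that anchors membrane proteins, is an example. Its leading entry had 1290 supplemented and 1161 restricted reads, or 4.77 FPKM supplemented and 4.15 FPKM restricted. A second entry with 0 supplemented and 6 restricted reads was given 21.6 FPKM in the restricted library. Its modelled length of 213 bases lies below the loci used for calibration and may not be its true length. A CFDP2 entry with a locus of 153 bases also had a modelled length of 213.5 bases. The divisor that the authors used for such short entries was therefore not recovered. The ANK2 sums were 4.77 FPKM supplemented and 25.8 FPKM restricted. For FOXO6, a forkhead transcription factor, 2 supplemented reads and 0 restricted reads at an entry with a similarly short modelled length came to 6.51 FPKM.

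The authors' deposited table calls 24 entries of 21 repeated names at q below 0.05, 21 up (0.437%) and 3 down (0.0625%). In the whole table those shares are 0.612% up and 0.131% down, and among names with 1 entry 0.857% up and 0.198% down. These q-values compare the 2 libraries and not the diets. Of the 24 called entries, 17 lead their name. In the authors' deposited table every entry is called for 3 names only, CXCL1 and SERPINB2 (both up) and XIRP1 (down). For the rest the call belongs to some entries. In the authors' deposited table CTSL1 and FMNL2 are called up at their second entry (q = 0.00574 and q = 0.0446) and not at their leading one. The shorter entry of HSPA1B has a call of down in the authors' deposited table (q = 0.0139), and the leading one has none (q = 0.112).

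Other called names had 1 active entry. MPEG1, a perforin-like protein of macrophages, had 2455 supplemented and 288 restricted reads at a single block and none at its other entry. RASGRF1, an exchange factor for Ras, had 1207 supplemented and 261 restricted reads, and none at its neighbour. CCL3, a chemokine of macrophages, had 1340 supplemented and 194 restricted reads at its leading entry, 7.15-fold (6.15 to 8.36), and 0 supplemented and 1 restricted read at each of its neighbours. All 3 are called up in the authors' deposited table, and the leukocyte marker sum of 609 FPKM supplemented and 115 FPKM restricted moved with them, its part not tested. Of 10 repeated names of cytokines, chemokines and their receptors, 4 of 6 entries above the filter were higher and 0 lower. Among all entries tested 5.84% were higher and 2.9% lower. Both entries of CXCL1 are among the 4, so the higher entries come from fewer names and are not independent.

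Families differed in how often their names were repeated. Among splicing factors and RNA-binding proteins 20 of 84 names were repeated, among transporters of the SLC and ABC families 46 of 370, and among zinc finger proteins 31 of 323. Of the 44 names of histones and high mobility group proteins 14 were repeated, and single blocks held 36.1% of the reads of these names in the supplemented library and 35.8% in the restricted library. Most of those reads belong to the single block of HMGB1, which is no histone. Of the 91 names of oxidative phosphorylation 23 were repeated, with a median log2 ratio of -0.35 over their entries above the filter, against -0.08 for all entries. Zinc finger names had a median leading share of 75.4% in the supplemented library and 78.9% in the restricted library, below the medians of 98.2% and 98.6% of ribosomal proteins.

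Some repeated names are not single genes. POL had 72 entries on 23 chromosomes, of which 32 were single blocks and 23 had no reads. The entries summed to 779 supplemented and 516 restricted reads, 1.56-fold (1.40 to 1.75). The leading one (chr20:29957966-29958811) had 265 supplemented and 155 restricted reads, 1.77-fold (1.45 to 2.17). GAG, another retroviral gene, had 10 entries, 7 of them single blocks, with 157 supplemented and 72 restricted reads in all, 2.26-fold (1.70 to 3.03). PAG1 had 19 entries, 15 of them without reads, and its leading one (chr9:57032711-57052483) held 100% supplemented and 96.8% restricted. MYADM had 19 entries on chromosome 18 with 60 supplemented and 44 restricted reads in all. Olfactory and taste receptors had 39 repeated names, 33 of them neighbouring, and 112 of their 123 entries had no reads.

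Mitochondrial names sat on nuclear chromosomes. The table has 27 chromosomes and no entry on a mitochondrial one. The leading MT-ND1 entry, named for a subunit of complex I, lay on chromosome X (chrX:56348413-56350636) with 19531 supplemented and 17900 restricted reads. The leading MT-CO1 entry, named for a subunit of cytochrome oxidase, lay nearby (chrX:56345529-56345705) with 6613 supplemented and 6570 restricted reads. The entries of both names on chromosome 2 had at most 5 supplemented and 11 restricted reads. A pair of repeated names was stored as calendar dates, with 4 entries. They were kept as they stand.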

How the data were processed

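Each line of the authors' table is a transcript entry. Per the submitters' processing notes, TopHat, Cuffdiff (no version) and build Oar_v3.1 were used. Its read columns were deposited as a scaled signal, each read multiplied by 1 factor per library (1.02 supplemented, 0.983 restricted). Dividing by it gave whole reads within 0.02 for 98.5% of supplemented and 98.3% of restricted values above 0. No count model could be fitted with 1 library per group. FPKM and the p-values and q-values are the authors' deposited values.

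Shares and read folds carry Clopper-Pearson intervals (scipy 1.17.1). FPKM ratios used a pseudocount of 1. Modelled lengths came from scaled reads over FPKM, calibrated on 893 entries with loci of 400 to 1200 bases. Procedures were tested on simulated data. RefSeq (ARS-UI_Ramb_v3.0) was used for names only and matched 77.8% of repeated names.

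The entries named here were drawn from the 6 names with most reads per arrangement, the 12 largest share differences and names with opposite entries. They also came from the 5 names with most entries, 10 with a call, 6 split names and 3 per family list. Not all names under these rules are described, and CLU and HLA-B are among those left out. DMBT1, NUP210L, SERPINB2, XIRP1, GAG, ANK2, FOXO6, PRDM2, PNKD, MTMR9, PPP1R2, ECE2, EP300 and POLR3E were named after their values were seen. The repeated names, lists and rules were chosen with earlier results of these data known. Alternatives covered thresholds, filters, pseudocounts and scalings.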

Additional observations from a re-analysis of the deposited data

How the results depend on the processing

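No paired analysis was possible because each diet has 1 library, and for the same reason no library could be left out. Of 54 recomputed values, 30 stayed within 1.5 times the value given (counts) or within its interval (medians). A neighbour limit of 10 kb gave 370 neighbouring and 557 distant names, and a limit of 1 Mb left 54 distant names. Shares of FPKM gave median leading shares of 89.4% supplemented and 90.4% restricted. The count of 20 names with differing shares became 11 with at least 200 reads, 43 at 5 points, 9 at 20 points and 43 without the interval rule. The counts of higher and lower entries (113 and 62) included 94 lower at a pseudocount of 0.1, 34 and 31 at a pseudocount of 5, 47 higher at a mean FPKM of at least 5, 35 lower by share of all reads, and 21 and 5 at a log2 ratio of 2. The 2 names with opposite entries became 4 at a pseudocount of 0.1, 6 without a filter, 1 by share of all reads, and 0 at a pseudocount of 5 or a mean FPKM of at least 5. Of the alternatives chosen after seeing the data, loci of at least 500 bases left 427 single blocks, pairs with at least 200 reads per entry gave 35 with intervals apart (of 178, 19.7%), and entries with at least 20 reads gave 25 names whose sum missed the rule (of 104). The cause was not tested, other than that stricter limits keep fewer names.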
